A study of Mus musculus with 8 samples.

Results

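The genes described here are the 10 that encode the main proteins of the milk fat globule, its lipid droplet core and its membrane: Btn1a1, Xdh, Plin2, Plin3, Muc1, Muc15, Mfge8, Cd36, Cidea and Fabp3. They were picked by name from the 55933 genes of the expression table, each name has a row there, and all 10 passed the minimum of a mean of 0.5 FPKM (fragments per kilobase of gene length, scaled to library depth, a level that can be compared between genes) that left 15143 genes for testing. RNA-seq was done on mammary epithelium of C57BL/6 females on day 14.5 of pregnancy, with 4 control libraries, which the labels call WT, and 4 libraries labelled cKO. In the cKO mice a K14 promoter drives the doxycycline-dependent activator rtTA, which turns on a teto-Cre transgene that recombines both floxed copies of Bmpr1a, a receptor for bone morphogenetic proteins, in K14-expressing basal (myoepithelial) cells. To induce Cre, doxycycline was given in the drinking water up to the time of collection. The controls were littermates, and the sources used here do not give their alleles, or whether the controls of these libraries had doxycycline. Glands were digested with enzymes and the cells were not sorted, so luminal cells, which make milk fat and are not the cells that the K14 promoter targets, were sequenced together with basal cells. The 6 luminal epithelial markers summed to 4757 to 5943 FPKM in the control libraries and 4618 to 5938 FPKM in the cKO-labelled ones, and the 6 basal markers to 1522 to 2058 FPKM and 1413 to 1947 FPKM. A few abundant genes carry these sums. None of these markers passed limma's adjusted test, but 1 luminal and 3 basal markers had an unadjusted p under 0.05: Elf5, a luminal transcription factor, averaged 21.3 and 38.5 FPKM (adjusted p = 0.0591), Krt14 753 and 577 FPKM (0.209), Trp63 3.58 and 2.45 FPKM (0.181) and Oxtr 2.62 and 5.65 FPKM (0.0644), each given as control and cKO-labelled.

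Bmpr1a itself, on chromosome 14 (34410734 to 34503341, minus strand), was not lower where the label says it was deleted. Its level was 10.64, 11.66, 8.74 and 9.522 FPKM in control replicates 1 to 4 and 12.01, 12.03, 10.17 and 10.39 FPKM in cKO-labelled replicates 1 to 4. The means were 10.1 ± 1.28 and 11.2 ± 1.01 FPKM (SD, n = 4 each), the groups overlapped, and the difference did not pass the test (exact permutation test, two-sided, p = 0.257; limma adjusted p = 0.560). A gene-level value counts reads over every exon and every cell of the preparation, so it is a weak check of a deletion in some of the cells, and every direction given below rests on the labels. Reads on genes, recovered from the FPKM, ranged from 16123108 to 19896988 per library. Where nothing else is said, a difference is cKO-labelled minus control on the scale log2(FPKM + 1), with its standard error and with a p from limma adjusted by the Benjamini-Hochberg method over all 15143 genes. This scale understates the change of genes with low levels.

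Milk fat is made as triacylglycerol droplets in luminal alveolar cells. Perilipins and CIDE proteins coat the droplets and let them grow, and at secretion the apical plasma membrane wraps around each droplet, with butyrophilin in the membrane, xanthine oxidoreductase beneath it and perilipin 2 on the droplet held to form the contact. The membrane that leaves with the globule also carries mucins, the adhesion protein lactadherin and the fatty acid transporter CD36, and the cytosolic fatty acid binding protein FABP3 is found with it. Many of these genes rise during pregnancy as alveoli acquire the ability to secrete.

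The mean level of 9 of the 10 transcripts was higher in the cKO-labelled group than in control, and Mfge8, lactadherin, was the exception. Adjusted over all genes, 3 of the 10 passed the test, all higher: Fabp3, Muc15 and Cd36. The same call was made for 89 of the 15143 genes, or 0.588% (a further 46 were called lower; with TPM, which scales every library to 1 sum, the split was 70 higher and 62 lower). Before adjustment, 9 of the 10 had a p under 0.05 and were higher, where 8.85% of all genes did so (1340 higher and 1140 lower; with TPM 788 and 1656, and the same count of 9 globule genes). In 7 of the 10 every cKO-labelled library lay above every control library, where 6.1% of all genes did so. The median difference over the 10 genes was 0.72, and over all genes tested it was 0.0007. The 10 genes were chosen with earlier results of these data known, so their direction is not independent evidence. Xdh, Btn1a1 and Muc15 were among the genes the study itself displayed from these libraries. In bulk RNA, more cells of a type and more RNA per cell cannot be told apart.

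**Figure D1:**
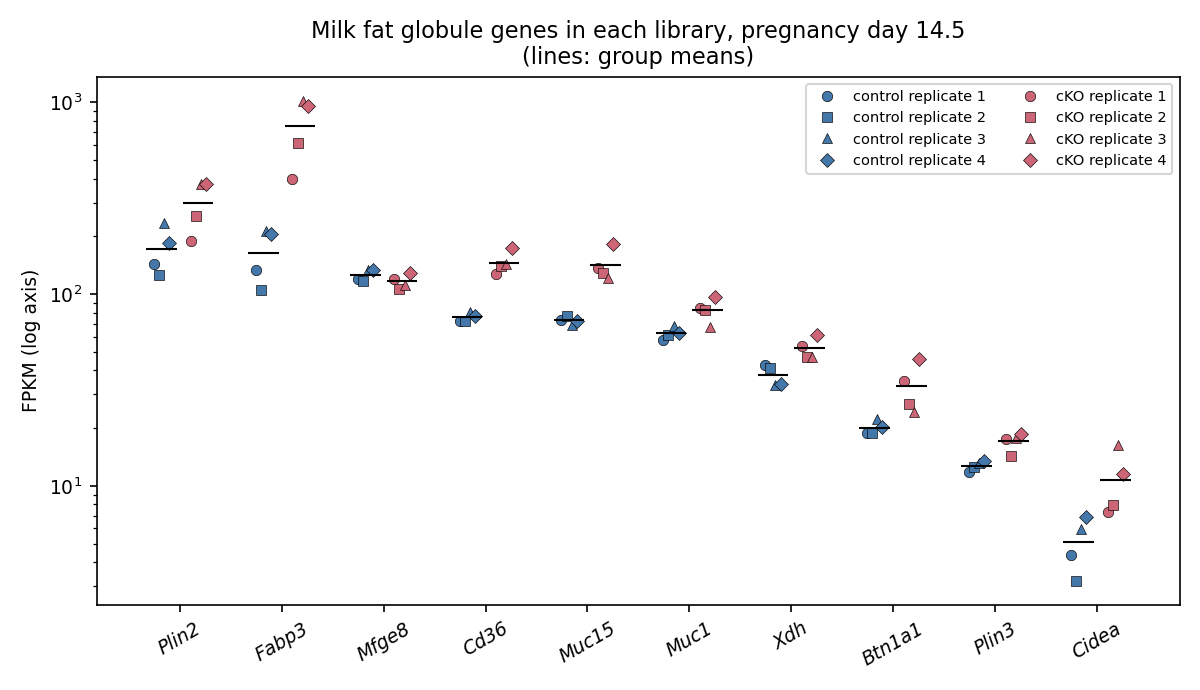
FPKM on a log axis of the 10 genes in each library, with control in blue, cKO-labelled in red, a symbol for each replicate and a line at each group mean (n = 4). The red points lie above all blue points of the same gene for 7 genes and overlap them for Plin2, Muc1 and Mfge8.

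Sequences are given first for Fabp3, the gene with the largest change, because the table also lists a processed copy of it that shares nearly all of its coding sequence. The copy, Fabp3-ps1, lies on chromosome 10 (86731987 to 86732388, minus strand, GRCm38) and consists of 402 bases, of which 399 (99.3%) match the 402 coding bases of Fabp3 with no gap. The 3 differences are A40T, C297T and G334A, with the Fabp3 base first and positions counted from 1 at the start codon, and the longest identical run is 256 bases. The first 60 bases of each are printed, from GRCm38 and the GENCODE vM21 annotation, with the base that differs in capitals.
Fabp3: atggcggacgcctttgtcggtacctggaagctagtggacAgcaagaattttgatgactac
Fabp3-ps1: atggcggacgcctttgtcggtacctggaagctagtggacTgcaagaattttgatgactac

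Promoter sequences were at hand in RefSeq's table for GRCm38.p6 for 6 of the 10 genes that can be shown: Plin2, Plin3, Muc1, Mfge8, Cd36 and Fabp3. Those of Cd36 and Fabp3, which passed the test, of Plin2, the coat protein with the highest level, and of Mfge8, the gene with no higher mean, are printed on the gene's own strand, from the stretch of 250 bases before the start and outside annotated exons. The start is the one in RefSeq's table. For Cd36 and Plin3 it lies inside the span of the gene given below. For Fabp3 the last 143 bases before it are annotated as exon. Capitals mark AGGTCA, the core sequence bound by many nuclear receptors, and GGGCGG, the GC box read by Sp1, on either strand.
Cd36 (chr5:17835897-17836146, minus strand): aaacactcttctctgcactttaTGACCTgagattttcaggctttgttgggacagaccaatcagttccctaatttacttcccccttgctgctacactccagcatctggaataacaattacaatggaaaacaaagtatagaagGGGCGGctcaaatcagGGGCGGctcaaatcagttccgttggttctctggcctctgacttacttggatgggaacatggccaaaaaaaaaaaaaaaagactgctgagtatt
Fabp3 (chr4:130308488-130308594, plus strand): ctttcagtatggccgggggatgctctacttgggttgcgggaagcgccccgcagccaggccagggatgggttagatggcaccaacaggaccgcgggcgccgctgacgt
Plin2 (chr4:86670061-86670309, minus strand): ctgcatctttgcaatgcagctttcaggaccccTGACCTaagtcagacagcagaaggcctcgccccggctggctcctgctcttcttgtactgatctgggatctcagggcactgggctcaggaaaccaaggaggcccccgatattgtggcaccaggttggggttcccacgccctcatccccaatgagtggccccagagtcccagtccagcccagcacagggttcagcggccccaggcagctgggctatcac
Mfge8 (chr7:79149061-79149310, minus strand): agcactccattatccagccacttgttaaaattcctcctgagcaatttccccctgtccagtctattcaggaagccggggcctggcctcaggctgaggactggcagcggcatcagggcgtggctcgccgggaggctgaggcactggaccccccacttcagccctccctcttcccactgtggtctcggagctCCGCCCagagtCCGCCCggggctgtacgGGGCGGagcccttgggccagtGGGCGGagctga

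Over the 250 bases before the RefSeq starts of these 6 genes, searched on both strands, AGGTCA occurred in 2, Plin2 and Cd36. It occurred in 14% of 32851 promoters of the same length. GGGCGG occurred in 4, with 4 copies in Mfge8, 3 in Plin3 and 2 each in Muc1 and Cd36, where matches that share a base were counted separately, against 32.7% of all promoters. TTCNNNGAA, the palindrome bound by STAT factors, was in 0 of the 6 and in 7.02% of all promoters. These matches only describe the letters in the window.

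Fabp3 encodes a cytosolic protein that binds long-chain fatty acids and is abundant in lactating mammary gland and heart. The gene (ENSMUSG00000028773, chromosome 4, 130308595 to 130315463, plus strand) was at 133.6, 104.5, 214.2 and 205.9 FPKM in control replicates 1 to 4 and at 398.1, 617.7, 1019 and 963.1 FPKM in cKO-labelled replicates 1 to 4. The groups did not overlap, and the lowest cKO-labelled value was well above the highest control value. The mean rose from 164.5 ± 54.0 to 749.4 ± 293.7 FPKM, a ratio of 4.55, and the difference was 2.15 (SE 0.335, limma adjusted p = 0.0339; exact permutation test, two-sided, p = 0.0286, which is the smallest p that 4 against 4 allow). Fabp3 rested on 1490 to 14721 reads per library. Within replicates 1 and 2 alone the difference was 2.06, and within replicates 3 and 4 alone it was 2.23. Fabp3 is also a gene of striated muscle, and the 6 skeletal muscle markers summed to 3.31 to 3.68 FPKM in control and 3.59 to 6.16 FPKM in cKO-labelled libraries. Mb, myoglobin, made up most of this sum at means of 2.43 and 2.98 FPKM (limma adjusted p = 0.662), Acta1, skeletal muscle actin, averaged 0.280 and 0.801 FPKM (unadjusted p = 0.00969, adjusted p = 0.157), and Ckm, Myh4, Tnnt3 and Casq1 were too low to test, with group means from 0.0111 to 0.438 FPKM. The part of muscle cells in the Fabp3 result was not tested.

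The copy of Fabp3 moved with the gene. Fabp3-ps1 had 3.732, 2.298, 4.9 and 3.314 FPKM in the control libraries and 10.7, 16.89, 32.11 and 15.14 FPKM in the cKO-labelled ones, a difference of 2.03 (SE 0.298, limma adjusted p = 0.0291) on 16 to 205 reads per library. Its reads came to 0.786 to 1.37% of those of Fabp3 in control and to 0.768 to 1.54% in cKO-labelled libraries, ranges that overlap. With 3 differing bases in 402, the split of reads between the 2 loci is uncertain. Exons of Fabp3 also overlap those of Zcchc17 on the other strand, and strand-aware counting is not stated in the sources used here. Zcchc17 had at most 306 reads in any library, and its means were 3.466 and 3.499 FPKM (limma adjusted p = 0.949).

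Muc15 and Muc1 encode mucins, heavily glycosylated proteins that span the apical membrane and coat the surface of the globule. Muc15 (ENSMUSG00000050808, chromosome 2, 110721340 to 110739527, plus strand) was at 73.32, 76.8, 69.4 and 72.72 FPKM in control and at 137.1, 129.6, 120.7 and 182 FPKM in cKO-labelled libraries. The control libraries lay within a narrow band and the groups did not overlap. Its mean rose from 73.1 ± 3.03 to 142 ± 27.3 FPKM (SD, n = 4 each), a difference of 0.94 (SE 0.120, limma adjusted p = 0.0266; exact permutation test, p = 0.0286). Muc15 rested on at least 4150 reads in every library, and Ano3, whose exons overlap it on the other strand, had at most 27.

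Muc1 (ENSMUSG00000042784, chromosome 3, 89229057 to 89233381, plus strand) was at 57.38, 60.93, 68.23 and 62.96 FPKM in control and at 84.22, 82.98, 67.13 and 96.74 FPKM in cKO-labelled libraries. Replicate 3 of the cKO-labelled group lay below replicate 3 of the control group, and the other 3 lay above all controls. The means were 62.4 ± 4.53 and 82.8 ± 12.1 FPKM, and the difference of 0.39 (SE 0.109) had an adjusted p of 0.132 from limma. Whether the change differed between Muc15 and Muc1 was not tested.

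Cd36 encodes a membrane receptor that takes up long-chain fatty acids and is a major glycoprotein of the globule membrane. The gene (ENSMUSG00000002944, chromosome 5, 17781690 to 17888801, minus strand) was at 72.15, 72.59, 81.05 and 76.94 FPKM in control and at 126.7, 140, 143.9 and 174.4 FPKM in cKO-labelled libraries. Both groups were tight and far apart. The mean rose from 75.7 ± 4.18 to 146 ± 20.2 FPKM, a ratio of 1.93 and a difference of 0.93 (SE 0.099, limma adjusted p = 0.0204; exact permutation test, p = 0.0286). The Cd36 window printed above holds 1 AGGTCA and 2 GGGCGG matches. It precedes a start inside the gene, not position 17888801, where the gene begins on the minus strand.

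Cd36 is also known from adipocytes, endothelium and macrophages, and markers of these cells are given beside it. The 7 adipocyte markers all had higher means in the cKO-labelled libraries, and their summed level was 2.002 to 3.817 FPKM in control libraries and 5.60, 24.97, 8.33 and 30.73 FPKM in cKO-labelled replicates 1 to 4. Of these 7, 3 were high enough to test, Adipoq, Cfd and Cidec. All 3 had an unadjusted p under 0.05 (limma), and 1, Cidec, passed the adjusted test. The control means of Adipoq and Cidec lay below the minimum of 0.5 FPKM, so their cKO-labelled values brought them into the test. Adipoq, the defining marker, averaged 0.303 and 1.25 FPKM, and Cfd, adipsin, which made up most of the sum, averaged 2.04 and 13.2 FPKM. The 6 endothelial markers summed to 103 to 120 FPKM in control and 78.5 to 109 FPKM in cKO-labelled libraries, and the 6 macrophage markers to 228 to 316 FPKM and 140 to 234 FPKM. None of the markers of those 2 cell types passed the adjusted test, and all 12 had lower means in the cKO-labelled group. An unadjusted p under 0.05 (limma) was found for 2 endothelial markers, Pecam1 and Emcn, and 3 macrophage markers, Adgre1, Lyz2 and C1qa. The part of adipocytes in the Cd36 result was not tested.

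Mfge8 encodes lactadherin, a secreted protein that binds phosphatidylserine on membranes and integrins on cells. The gene (ENSMUSG00000030605, chromosome 7, 79133768 to 79149060, minus strand) was at 119.4, 116.6, 133.7 and 133 FPKM in control and at 119.5, 106.4, 111.8 and 129.5 FPKM in cKO-labelled libraries. The ranges of the groups overlapped in part, with cKO-labelled replicates 2 and 3 below every control library and control replicates 3 and 4 above every cKO-labelled one. The means were 126 ± 8.96 and 117 ± 10.1 FPKM, and the difference of -0.11 (SE 0.084) did not pass the test (limma adjusted p = 0.583; exact permutation test, two-sided, p = 0.2). Mfge8 rested on 8235 to 11720 reads per library, so counting error is small beside the spread between mice.

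Btn1a1, Xdh and Plin2 encode the proteins of the contact between droplet and plasma membrane: butyrophilin in the membrane, xanthine oxidoreductase under it and perilipin 2 on the droplet. Btn1a1 (ENSMUSG00000000706, chromosome 13, 23456992 to 23465901, minus strand) was at 18.84, 18.87, 22.23 and 20.34 FPKM in control and at 35.29, 26.7, 24.41 and 46.04 FPKM in cKO-labelled libraries. The groups did not overlap, but the gap between the highest control and the lowest cKO-labelled value was small. The ratio of the means was 1.65 and the difference 0.66 (SE 0.177, limma adjusted p = 0.125; exact permutation test, p = 0.0286). The spread of Btn1a1 was wider in the cKO-labelled group, with an SD of 29.6% of its mean against 7.98% in control.

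Xdh (ENSMUSG00000024066, chromosome 17, 73883895 to 73950196, minus strand) was at 42.8, 41.02, 33.76 and 33.98 FPKM in control and at 53.85, 46.83, 47.19 and 61.47 FPKM in cKO-labelled libraries, again with no overlap. The ratio of the means was 1.38 and the difference 0.45 (SE 0.114, limma adjusted p = 0.103). For Xdh the size of the difference depended on the replicates compared, at 0.26 within replicates 1 and 2 and 0.65 within replicates 3 and 4, since control replicates 3 and 4 were its lowest libraries.

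Plin2 (ENSMUSG00000028494, chromosome 4, 86648386 to 86670060, minus strand) was at 143.5, 126.3, 235.5 and 183.9 FPKM in control and at 188.8, 254.9, 376.9 and 375.5 FPKM in cKO-labelled libraries. The groups overlapped because control replicate 3 exceeded cKO-labelled replicate 1. The means were 172 ± 48.6 and 299 ± 93.1 FPKM, with a difference of 0.78 (SE 0.262, limma adjusted p = 0.192; exact permutation test, two-sided, p = 0.0571). Each of the 3 genes of the secretion complex had a higher mean, and none passed the adjusted test without a block. When replicates 1 and 2 were fitted as a block and replicates 3 and 4 as another, a grouping seen in the values and not in the labels, Plin2 passed (limma adjusted p = 0.0266), while Btn1a1 (0.0983) and Xdh (0.0755) did not. Because these blocks were seen in the same values, a pass with them is not independent support. Over all genes, 442 passed with these blocks, against 135 without a block.

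Plin3 and Cidea act on the droplet itself, Plin3 as a coat protein of young droplets and Cidea as a protein that lets droplets exchange and merge their lipid. Plin3 (ENSMUSG00000024197, chromosome 17, 56277476 to 56292873, minus strand) was at 11.8, 12.6, 13.24 and 13.45 FPKM in control and at 17.5, 14.4, 17.7 and 18.69 FPKM in cKO-labelled libraries, without overlap. Its difference was 0.39 (SE 0.086), and its adjusted p of 0.0778 from limma was the lowest among the 7 genes that did not pass. With the blocks of replicates just described, Plin3 passed (limma adjusted p = 0.0322). Plin2 stood at 10.03 to 17.79 times the Plin3 level in control and at 10.8 to 21.3 times in cKO-labelled libraries, ranges that overlap.

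Cidea (ENSMUSG00000024526, chromosome 18, 67343604 to 67367785, plus strand) was at 4.347, 3.21, 5.942 and 6.881 FPKM in control and at 7.341, 7.938, 16.38 and 11.49 FPKM in cKO-labelled libraries. The lowest cKO-labelled value was just above the highest control value. The ratio of the means was 2.12, and the difference of 0.93 (SE 0.264) had an adjusted p of 0.136 from limma, and of 0.0207 with these blocks. With 62 to 290 reads per library, Cidea had the fewest reads of the 10 genes. It is a known gene of brown adipocytes as well. The 3 brown adipocyte markers summed to 0.460 to 1.06 FPKM in control and 0.317 to 1.47 FPKM in cKO-labelled libraries, with means of 0.431 and 0.296 FPKM for Ucp1 and of 0.314 and 0.456 FPKM for Cox8b. The part of brown adipocytes in the Cidea result was not tested.

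**Figure D2:**
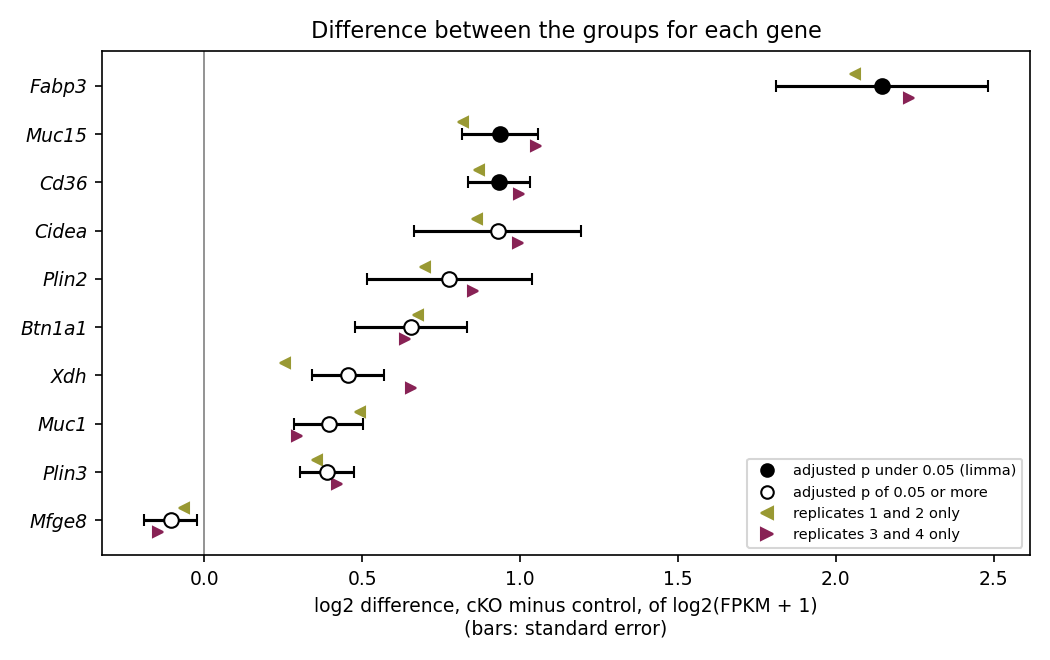
Difference between the groups for each of the 10 genes on the log2(FPKM + 1) scale, with bars for the standard error, filled circles for an adjusted p under 0.05 (limma, 4 against 4 libraries) and triangles for replicates 1 and 2 or 3 and 4 alone. Fabp3 stands at 2.15, Muc15, Cd36 and Cidea near 0.93, and Mfge8 at -0.11 is the only gene left of 0.

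The 3 calls did not all hold when single libraries were left out. With control replicate 1, 2 or 4 left out, 0 of the 10 genes passed limma's adjusted test, but then only 5, 1 and 0 genes passed in the whole table. Cd36 alone passed without control replicate 3 or without cKO-labelled replicate 2, Cd36 and Muc15 passed without cKO-labelled replicate 3 or 4, and all 3 passed without cKO-labelled replicate 1. Over the whole table, 9 genes passed without control replicate 3, and 78, 11, 77 and 12 passed without cKO-labelled replicates 1, 2, 3 and 4. The differences moved little through this, from 1.95 to 2.42 for Fabp3, 0.85 to 1.00 for Cd36 and 0.81 to 1.01 for Muc15.

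Fabp3, Plin2 and Cidea varied widely among the control libraries, with an SD of 32.8, 28.2 and 32.1% of the mean, while the other 7 lay between 4.15 and 12.4%. In the cKO-labelled group their SD was 39.2, 31.1 and 38.5% of the mean, and there Btn1a1, at 29.6%, lay close to Plin2, with the other 6 between 8.61 and 19.2%. In control, the mean of replicates 3 and 4 exceeded that of replicates 1 and 2 by 0.82 for Fabp3, 0.62 for Plin2 and 0.64 for Cidea on the log2(FPKM + 1) scale. In the cKO-labelled group the same step was 1.00, 0.78 and 0.77. For the other 7 genes it lay between -0.30 (Xdh) and 0.18 (Mfge8) in control and between -0.05 (Muc1) and 0.25 (Cd36) in the cKO-labelled group. The labels name no batch for these replicates, and the split was seen in the values themselves.

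The replicate with the highest value was not the same for all genes. Btn1a1, Muc15, Muc1, Xdh, Plin3 and Cd36 had their highest value in cKO-labelled replicate 4, and Btn1a1, Muc15 and Muc1 had their lowest value of that group in replicate 3. Fabp3, Plin2 and Cidea had their highest value in replicate 3, for Plin2 by a small margin over replicate 4. That replicate 4 also held the highest sum of the 8 milk protein genes, at 18870 FPKM, where the control libraries lay between 4279 and 6487 FPKM and the other cKO-labelled libraries between 10390 and 13230 FPKM. Of those 8 milk genes, 4 passed the test, all higher, where 0.588% of all genes did so. Before adjustment, 7 had a p under 0.05 (limma) and were higher, where 8.85% of all genes did so. The part of the milk gene level in the results on the globule genes was not tested.

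**Figure D3:**
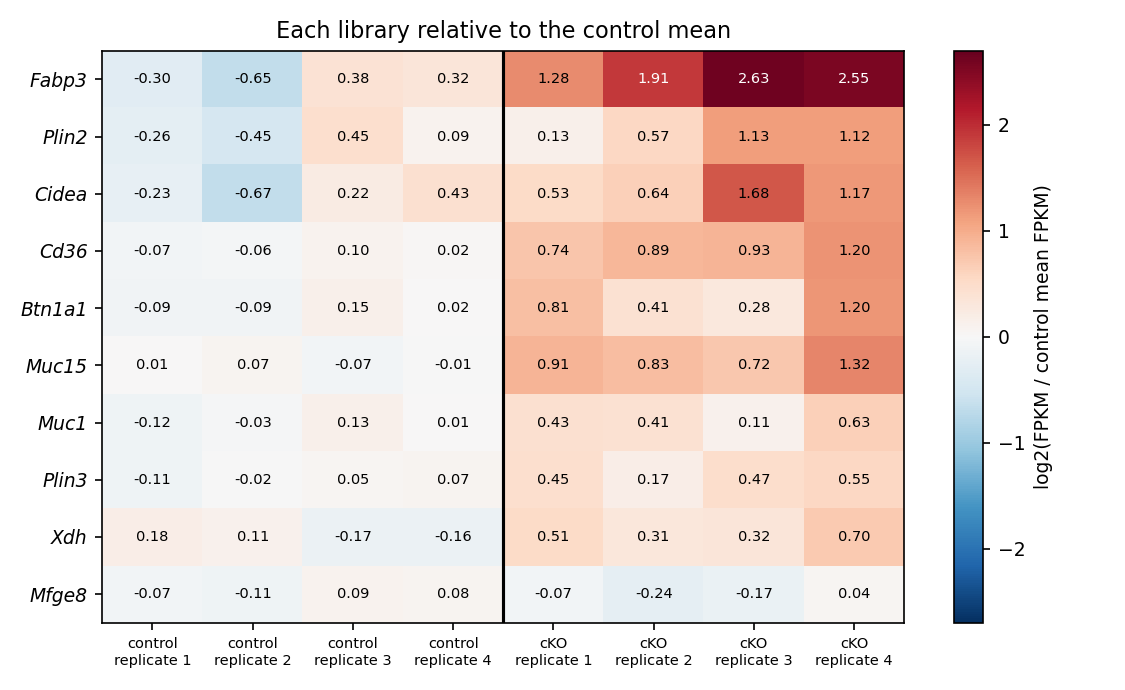
Each cell gives the log2 ratio of a library's FPKM to the control mean of that gene, with columns for the 4 control and 4 cKO-labelled libraries and red for higher. Fabp3 reaches 2.63 and Cidea 1.68 in cKO-labelled replicate 3, while Muc15, Cd36 and Btn1a1 peak in replicate 4 at 1.32, 1.20 and 1.20.

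Set side by side in FPKM, the order of the genes differed between the groups. In control libraries Plin2 led with 172 FPKM, followed by Fabp3 with 165 and Mfge8 with 126, and the ranges of each neighbouring pair among these 3 overlapped. Cd36 and Muc15 came next with overlapping ranges, then Muc1, Xdh, Btn1a1, Plin3 and Cidea, each below the whole range of the gene before it. In cKO-labelled libraries Fabp3 led with 749 FPKM and Plin2 followed with 299, without overlap. Mfge8 then stood behind Cd36 and Muc15, and the ranges of these 3 genes overlapped one another. The rest kept their order, with overlapping ranges for Plin3 and Cidea.

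Summed over the 10 genes, the level was 633.5 to 877.3 FPKM in control and 1169 to 2059 FPKM in cKO-labelled libraries. Fabp3 made up 16.5 to 25.4% of this sum in control and 34.1 to 52.4% in cKO-labelled libraries. Without Fabp3, the sum was 528.9 to 663.1 FPKM and 770.4 to 1096 FPKM, still without overlap. Mfge8 made up 15.2 to 18.4% of the sum in control and 5.75 to 10.2% in cKO-labelled libraries. The ratio of Fabp3 to Plin2 was 0.827 to 1.12 in control and 2.108 to 2.702 in cKO-labelled libraries.

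Further genes of the droplet and of milk fat synthesis were read from 3 lists of 35 genes in all, of which 28 were high enough to test. Of the 28, 2 passed limma's adjusted test, both higher, where 0.588% of all genes did so, 0 passed as lower, and the median difference was 0.14 against 0.72 for the 10 globule genes. Before adjustment 7 had a p under 0.05, all higher, where 8.85% of all genes did so. In the list of other droplet coat, growth and lipolysis proteins, 2 of 10 tested genes passed. Cidec, a relative of Cidea that makes droplets grow, was at 0.435, 0.342, 0.450 and 0.316 FPKM in control and at 1.00, 1.63, 1.32 and 2.29 FPKM in cKO-labelled libraries. Its difference was 0.86 (SE 0.145, limma adjusted p = 0.0378) on only 11 to 79 reads per library. The control mean of Cidec, 0.386 FPKM, was below the minimum of 0.5 FPKM, so its cKO-labelled values brought it into the test. With no filter its limma adjusted p was 0.101. Cidec is also on the adipocyte list above.

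Abhd5, the co-activator of the lipase that Pnpla2 encodes, was at 20.16, 18.63, 19.09 and 20.1 FPKM in control and at 30.29, 25.02, 24.21 and 27.36 FPKM in cKO-labelled libraries. The groups did not overlap, and its difference was 0.43 (SE 0.077, limma adjusted p = 0.0461). With TPM scaling Abhd5 had an adjusted p of 0.107 at a difference of 0.37. Leaving out any 1 library other than cKO-labelled replicate 1 took both Cidec and Abhd5 above 0.05, and that one took Abhd5 above it. Pnpla2, adipose triglyceride lipase, and Hilpda, which inhibits it, had differences of 0.37 and 0.39 that did not pass (adjusted p = 0.322 and 0.477).

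Among relatives and partners of the globule membrane proteins, 0 of 11 tested genes passed after adjustment. An unadjusted p under 0.05 was found for 3, Muc20, Btnl9 and Muc4. Muc4, named after its values were seen, averaged 67.5 and 79.9 FPKM (difference 0.24, limma adjusted p = 0.177). The median difference of the 11 was 0.08. Muc20, another membrane mucin, had the largest, at 0.52 (10.1 ± 1.34 and 14.97 ± 2.61 FPKM, limma adjusted p = 0.0965). Btnl9, a butyrophilin-like gene, had 0.35 (adjusted p = 0.115) and Folr1, a folate receptor, 0.42 (adjusted p = 0.326). Of the other fatty acid binding protein genes, Fabp4, named after its values were seen, had 96.7 and 111 FPKM (difference 0.21, adjusted p = 0.491) and Fabp5 had 39.2 ± 7.91 and 31.3 ± 4.25 FPKM (difference -0.31, adjusted p = 0.328). Their difference from the change in Fabp3 was not tested.

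Of the 7 enzymes of triacylglycerol synthesis, 0 passed after adjustment, 1 had an unadjusted p under 0.05, and the median difference was 0.03. Gpam, the mitochondrial acyltransferase of the entry step, had 0.33 (1.56 ± 0.077 and 2.22 ± 0.218 FPKM, limma adjusted p = 0.0811), and it passed by limma-voom on recovered reads. Dgat2, an enzyme of the final step, had -0.31 (adjusted p = 0.366). Lpin1 and Agpat2, of the steps between, had 0.29 and 0.12 (adjusted p = 0.439 and 0.647).

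**Figure D4:**
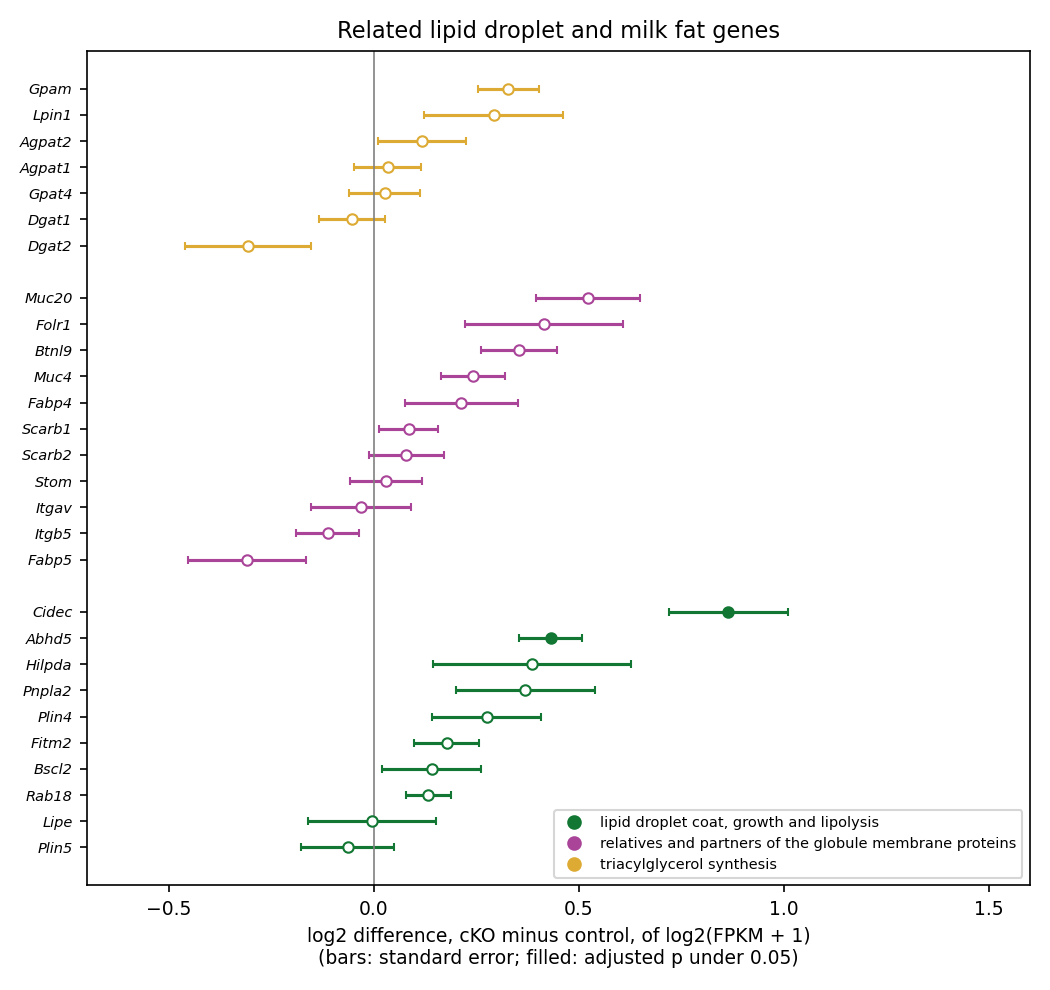
Differences of the 28 tested genes of the 3 related lists on the log2(FPKM + 1) scale, cKO-labelled minus control, with bars for the standard error and filled circles for an adjusted p under 0.05 (limma). Only Cidec at 0.86 and Abhd5 at 0.43 are filled, and Fabp5 and Dgat2 lie farthest left at -0.31.

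The genes whose deviations from the group means were most like those of Fabp3 over the 8 libraries, among 12922 genes with a mean of at least 1 FPKM, were Wbp11 (Pearson r = 0.997), Prkcsh (0.992), Phf5a (0.992), Rbp7 (0.991) and Atp5h (0.991). This measure leaves out the difference between the groups, is given as a description of 8 libraries that share the split between replicates 1 and 2 and replicates 3 and 4, and was searched for its highest values. Of the 5, Rbp7, a cellular retinol binding protein of the same protein family as Fabp3, averaged 14.6 and 27.6 FPKM (adjusted p = 0.157), and the other 4 had differences between -0.13 and 0.06.

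**Figure D5:**
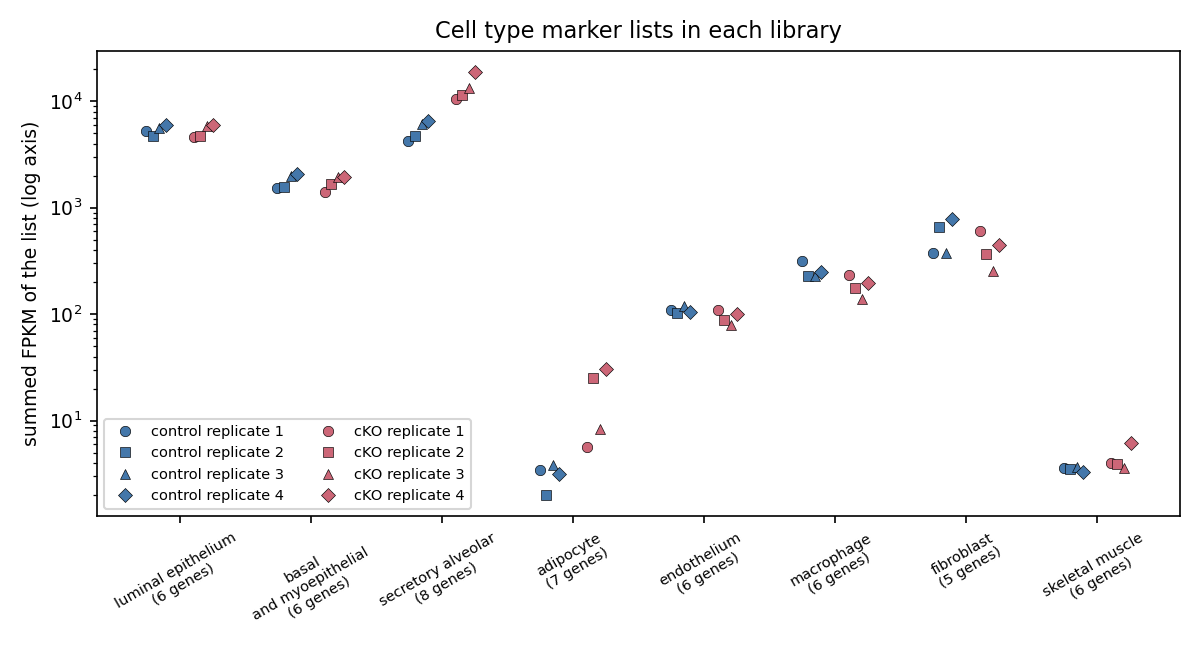
Summed FPKM on a log axis of the marker lists in each library, with control in blue and cKO-labelled in red and a symbol for each replicate. Luminal and basal sums overlap between the groups, the 5 fibroblast markers overlap as well at 373 to 783 and 256 to 610 FPKM, and the sums of the 8 milk genes and of the 7 adipocyte markers are higher in all cKO-labelled libraries than in any control library, the latter going from 2.002 to 3.817 FPKM up to 5.601 to 30.73 FPKM.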

How the data were processed

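The authors isolated total RNA from mammary epithelium, prepared NEBNext Ultra libraries, mapped reads to GRCm38 with Hisat2 v2.0.5 and deposited FPKM per gene. The submitters' processing notes name StringTie 1.3.3b, featureCounts 1.5.0-p3 and the build mm9. GENCODE vM21 holds 55480 of the gene identifiers, 99.68% at identical positions, so positions are GRCm38. Reads per gene came from FPKM times length, which were whole multiples of 1 step per library for 100% of values (tolerance 0.01). The steps include median-of-ratios size factors.

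Columns were matched to samples by label. Differences were tested with limma 3.58.1 (R 4.3.3; empirical Bayes with trend) on log2(FPKM + 1), without a block, for 15143 genes with a mean of at least 0.5 FPKM, with an adjusted p under 0.05 as the threshold. The study's DESeq2 v1.16.1 was not run here. As an alternative, limma-voom was run on the recovered reads. The procedure was also run on simulated data that had the same added spread for every gene and no split between replicates, and no result here rests on that run. Single genes were also compared by exact permutation. Python 3.11.15, scipy 1.17.1 and matplotlib 3.10.9 did the rest. Alternatives were another pseudocount, scaling, filter, variance model, test or block, and leaving out each library.

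Members and lists were chosen with earlier results of these data known. Related genes named are the 4 with the largest difference per list, and Fabp4 and Muc4, which were named after their values were seen. The labels do not say which mice share a litter, replicates are taken as separate mice, and no replicate pair agreed within sampling noise (chi-square per degree of freedom of at least 8.18). Replicate number entered only as a block in alternatives.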

Additional observations from a re-analysis of the deposited data

How the results depend on the processing

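All 10 differences kept their direction under every alternative, and Mfge8 and Muc1 passed the adjusted test under none. Of the 3 genes that passed, Cd36 stayed under 0.05 in 17 of 20 settings, Muc15 in 14 and Fabp3 in 12. Among globule genes, 1 passed with no filter, 6 when replicates 1 and 2 formed a block and 3 and 4 another (Plin2, Plin3 and Cidea in addition), and 0 to 3 with 1 library left out. Over all genes, 135 passed, against 10 with no filter, 252 by limma-voom on recovered reads, 442 with these blocks and 0 to 78 with 1 library left out. Of the related genes, 2 passed, against 1 each with TPM, with TPM without milk genes in its sum, with a mean of at least 1 FPKM (Cidec is then not tested) and without the variance trend, 3 by limma-voom (Gpam in addition), 0 with no filter, and 0 to 1 with 1 library left out. The causes of these shifts were not tested, except that the filter changes which genes are tested.

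With the replicate number as a block, 3 globule genes, 50 of all genes and 0 related genes passed, and by limma-voom with that block 8 (all but Muc1 and Mfge8), 680 and 6. The numbers share deviations only weakly (correlations of 0.080 to 0.137 for the same number and a mean of 0.130 for other numbers within replicates 1 and 2 or within 3 and 4), and control replicate 2 correlated best with cKO-labelled replicate 1, at 0.178, so the number was not taken to pair the mice. The Xdh difference was 0.26 in replicates 1 and 2 and 0.65 in 3 and 4. Of Cidec and Abhd5, Cidec had fewer reads, at 11 to 79 per library, and among the globule genes Cidea had the fewest, at 62 to 290. The part of counting error in their spread was not tested.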
